A study of Mus musculus with 4 samples.

Results

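The genes described here are the mouse genes whose symbol is *Zfp* followed only by a number, the default name given to a gene that encodes a zinc finger protein. They were measured by RNA-seq in wild-type R1 ESCs (WT), which are mouse embryonic stem cells of a line in common use, and in *Zfp296* CRISPR KO clone 2 ESCs (KO2), labelled as a single clone of R1 ESCs, with 2 biological replicates per group and 4 samples in all. No other allele, treatment or time point enters the comparison, and with 1 clone the effect of the edit and the history of the clone cannot be told apart. A gene was a member if it had at least 10 counts in each of the 4 samples, and *Zfp42*, *Zfp57*, *Zfp219*, *Zfp281*, *Zfp296*, *Zfp532*, *Zfp592* and *Zfp687* were left out by name. This left 241 genes of the 333 so named and of 48526 genes in the files.

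A C2H2 zinc finger is a short loop of protein held together by a zinc ion between a pair of cysteines and a pair of histidines. Fingers are usually arranged in tandem, and each contacts a few bases of DNA, so that the array as a whole recognises a long sequence. Many of these proteins also carry a KRAB box near the N-terminus, which recruits the co-repressor TRIM28 (KAP1) and, through it, the histone methyltransferase SETDB1. In ESCs this machinery is known for the silencing of endogenous retroviruses and for keeping the methylation of imprinted loci. KRAB zinc finger genes multiply by tandem duplication and therefore lie in chromosomal clusters of similar sequence.

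Total gene counts ranged from 2829914 to 4334499 in WT and from 7437294 to 7470907 in KO2. A count of 3 therefore stood for 1.06 and 0.692 CPM in WT and for 0.402 and 0.403 CPM in KO2, where CPM is the count divided by the library size in units of 1000000, scaled with edgeR's TMM method. The quasi-likelihood test of edgeR was applied to 12883 genes, and a gene was called if its p-value, adjusted by the Benjamini-Hochberg method over all tested genes, was under 0.05. The labels call the replicates biological without saying how they were grown, so that p-values measure the spread between these samples only. Of the ESC markers, 7 of 8 were found in the files, with 592 to 10242 counts per sample, and 1 was called (*Sox2*, lower in KO2). Of 23 markers of other lineages and of 2-cell-like cells, 20 were found, of which only the neural progenitor gene *Nes* exceeded 72 counts in any sample, and none was called. The count of *Zfp296* itself was 31 in both WT samples, compared to 416 and 282 in KO2, so that its RNA was higher in the edited clone. As counts per gene do not show the edit, they do not check the label. The 5 tested Y-linked genes had at most 1 count in each WT sample and 13 to 2197 in each KO2 sample, although both lines are labelled as R1, which is a male line.

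To show what the family encodes, the DNA of 1 finger is given for members described below. Each line holds 84 bases, from the first cysteine codon of a finger to the last codon before the next finger, with the codons of the paired cysteines and histidines in capitals. All were taken from GENCODE M1 coding transcripts and lie in the last coding exon.

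*Zfp961*: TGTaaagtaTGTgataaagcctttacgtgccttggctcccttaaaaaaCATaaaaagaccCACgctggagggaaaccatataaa

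*Zfp62*: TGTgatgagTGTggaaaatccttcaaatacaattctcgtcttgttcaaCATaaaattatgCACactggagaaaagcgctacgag

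*Zfp146*: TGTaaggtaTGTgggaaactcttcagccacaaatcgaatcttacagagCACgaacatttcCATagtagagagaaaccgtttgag

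*Zfp534*: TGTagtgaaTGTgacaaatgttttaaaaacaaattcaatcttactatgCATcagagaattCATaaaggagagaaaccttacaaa

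*Zfp600*: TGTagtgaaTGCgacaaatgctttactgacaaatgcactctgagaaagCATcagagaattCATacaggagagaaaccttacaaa

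*Zfp933*: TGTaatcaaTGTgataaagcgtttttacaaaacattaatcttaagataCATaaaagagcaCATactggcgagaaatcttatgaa

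In mm9, the *Zfp961* unit lies at chr8:74491979-74492062 on the plus strand and the *Zfp62* unit at chr11:49028961-49029044 on the plus strand. The *Zfp146* unit lies at chr7:30947500-30947583 and the *Zfp534* unit at chr4:147049513-147049596, both on the minus strand. For these 4 genes the first complete unit is shown. For *Zfp600* and *Zfp933*, which lie in the same cluster as *Zfp534*, the unit nearest to that of *Zfp534* is shown. It differed from it at 12 of 84 positions in *Zfp600* (plus strand, chr4:146162921-146163004, the first of 3 identical copies within the gene) and at 27 in *Zfp933* (minus strand, chr4:147200179-147200262). This matters for the counts, because HTSeq counts only reads that map uniquely. Of the 50-base stretches of the longest coding transcript, 64.4% in *Zfp534* and 84.4% in *Zfp600* also occur in another gene, compared to 0.62% in *Zfp933*. Over the 241 members the median was 0, 130 members shared no such stretch, and 16 shared more than 20%, of which 15 encode a KRAB box. The counts of these 16 genes are less certain.

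The rule chose members by their counts, and the libraries differ in depth. Of the 333 genes, 84 had fewer than 10 counts in at least 1 sample, 12 of them with no count in any sample. In 39 of the 84 the count was too low in a WT sample only, and in 1 it was too low in a KO2 sample only. Correspondingly, the lowest count was in WT replicate 1, the library with the fewest counts, for 216 of the 241 members. Just inside the minimum were *Zfp382* (WT 23 and 10 counts, KO2 66 and 48) and *Zfp458* (WT 10 and 19, KO2 34 and 38), and just outside were *Zfp114*, *Zfp300*, *Zfp46*, *Zfp764* and *Zfp768*, each with a lowest count of 9. Of the 84 genes below the minimum, 44 were still tested and none was called in edgeR, with 5 at an unadjusted p under 0.05. Their log2 fold changes had a median of 0.45, with 28 above 0 and 16 below, whereas those of the members had a median of -0.07. With members, low genes and genes left out by name together, the median was -0.06. Of the 8 genes left out by name, all were tested and 1 was called, *Zfp296*.

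Few *Zfp*-named genes passed the test between KO2 and WT. Of the 241 members, all of which were tested, 4 were significantly lower and 1 was significantly higher in KO2, or 2.07%, compared to 5.64% of all tested genes and 6.17% of the 10361 tested genes with the same minimum of 10 counts in every sample. In the lower direction the background was 3.04% and in the higher direction it was 2.6%. At an unadjusted p under 0.05 there were 34 members, 26 lower and 8 higher, or 14.1% compared to 19.4% of all tested genes. In bulk RNA, less RNA per cell and fewer cells that express a gene cannot be told apart.

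The estimates of the members were more often below 0 than above. Their log2 fold changes had a median of -0.07 with quartiles of -0.27 and 0.12, compared to a median of 0.01 over all tested genes and of -0.02 over those with the same minimum count. Of the members, 145 (60.2%) were below 0 and 96 above, compared to 48.6% and 52.1% below 0 in these sets. The standard deviation was 0.40, compared to 0.71 over all tested genes but 0.46 over those with the same minimum count. An estimate within 1.5-fold was seen in 210 members (87.1%), compared to 77.3% and 85.0%. In the 44 tested *Zfp*-named genes below the minimum the standard deviation was 0.77, and 50% were within 1.5-fold, and the rule had set these aside. Beyond 2-fold were 7 members, all lower, and 12 of the 44 genes below the minimum, 10 of them higher, so that no direction can be read from the former. Both KO2 samples lay below both WT samples for 65 members (27.0%, background 23.4%, or 26.4% with the same minimum count) and above both for 36 (14.9%, background 25.4% or 23.4%), and the groups overlapped for 140. Under normalization to the ERCC spike-ins, synthetic RNAs of known sequence, the median of the members was 0.0032 and that of all tested genes was 0.09. The median of the members minus that of all tested genes was thus -0.087, compared to -0.084 with TMM, as the spike-ins shifted both sets alike. With the spike-ins no member was called in edgeR, and 12 had an unadjusted p under 0.05.

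**Figure D1:**
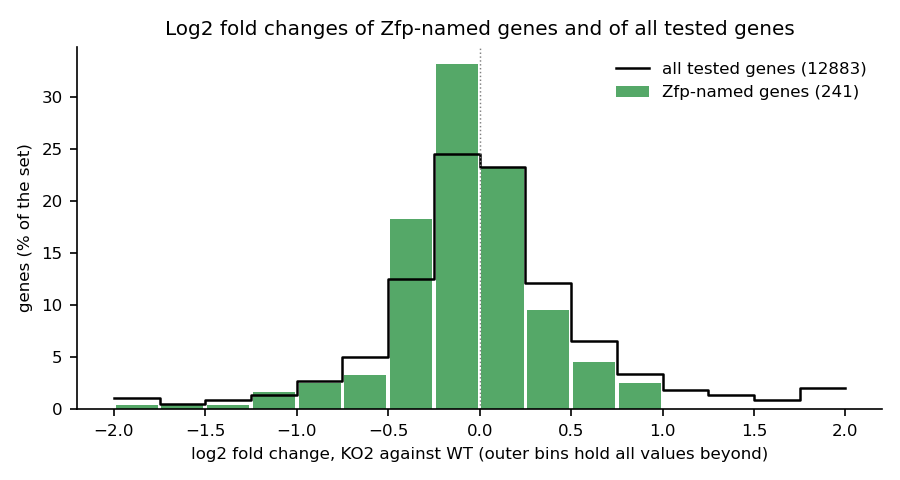
Histogram of log2 fold changes (KO2 against WT, bins of 0.25) for the 241 *Zfp*-named genes (bars) and for all 12883 tested genes (line), each as a percentage of its set, with values beyond 2 in either direction placed in the outer bins. The bin from -0.25 to 0 holds 33.2% of the *Zfp*-named genes and 24.54% of all tested genes, and none of the 241 exceeds 1.

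The replicates of a group also differed from each other. The log2 CPM (with 0.5 CPM added) of members differed between the 2 WT samples with a standard deviation of 0.456 across genes, and between the 2 KO2 samples with one of 0.355. A difference between means of 2 samples varies less than one between single samples, and from these spreads alone its standard deviation would be 0.289, whereas the difference between the group means had one of 0.379. Over all tested genes the corresponding values were 0.408 and 0.603. As both KO2 libraries were deeper, all samples were also thinned to 2829914 counts. The median of the members then lay between -0.10 and -0.05 over 10 draws, with 3 to 6 members called lower and 0 to 2 called higher in edgeR.

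The 5 members that were called lie on 5 chromosomes. *Zfp961* (chr8:74474937-74517307) encodes a KRAB zinc finger protein with 11 fingers. Its level was 144 and 164 CPM in WT and 96.9 and 102 CPM in KO2, so that both KO2 samples lay well below both WT samples. The log2 fold change was -0.64 (SE 0.130, adjusted p = 0.00562, edgeR). *Cyp4f18* overlaps it on the opposite strand and had no count in any sample.

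*Zfp146* (chr7:30946293-30954746) is also known as OZF, a protein that consists of fingers with no KRAB box, of which 10 were found. It was the called member with the largest fold change and the lowest level, at 19.8 and 25.5 CPM in WT and 6.97 and 10.8 CPM in KO2, or 53 to 108 counts per sample. The log2 fold change was -1.37 (SE 0.315, adjusted p = 0.0133, edgeR). *Zfp62* (chr11:49016794-49032318), with 26 fingers and no KRAB box, was at 125 and 116 CPM in WT and at 73.8 and 90.8 CPM in KO2. The groups did not overlap, and the log2 fold change was -0.55 (SE 0.143, adjusted p = 0.0302, edgeR).

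*Zfp534* (chr4:147047611-147076662) encodes a KRAB protein with 15 fingers. It had 121 and 103 CPM in WT and 62.0 and 80.1 CPM in KO2, without overlap between the groups, and a log2 fold change of -0.65 (SE 0.155, adjusted p = 0.0166, edgeR). It shares sequence with other genes, as given above, and overlaps *2610305D13Rik* on the same strand, which was also lower.

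*Zfp259* (chr9:46081147-46090726) was the only called member that was higher in KO2. It is now named *Zpr1*, encodes a protein that binds the translation factor eEF1A, and held no C2H2 pattern, so that it belongs to the set by name only. Its level was 45.8 and 41.1 CPM in WT and 69.2 and 65.9 CPM in KO2, and the log2 fold change was 0.64 (SE 0.166, adjusted p = 0.0275, edgeR). No member with a C2H2 finger was therefore called higher. With DESeq2, 4 members were called, all lower, namely *Zfp146*, *Zfp534*, *Zfp961* and *Zfp207*.

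**Figure D2:**
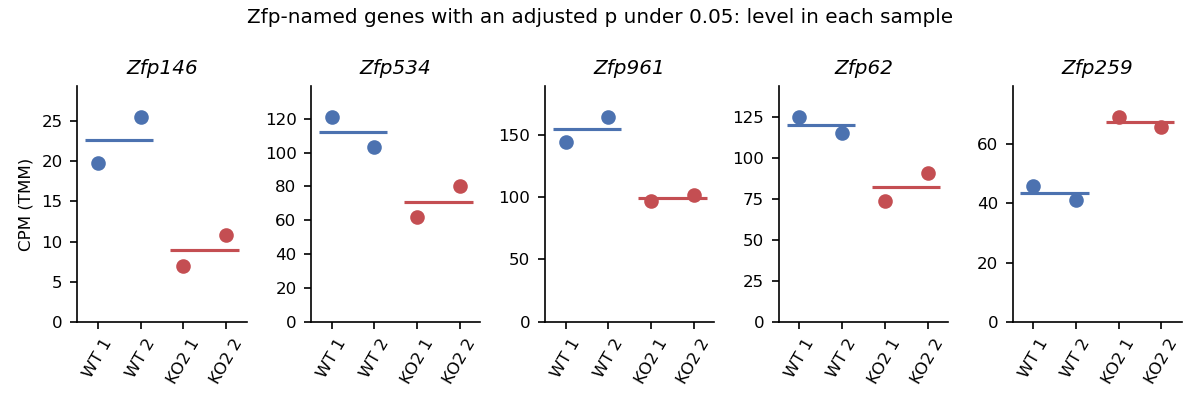
Level of the 5 called members in each sample (points, TMM-scaled CPM, axes from 0), with the mean of each group as a line (n = 2). Both KO2 samples lie below both WT samples for *Zfp146*, *Zfp534*, *Zfp961* and *Zfp62*, and above both for *Zfp259*.

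How firmly each call stands was examined by leaving out 1 sample at a time, which leaves a single sample in 1 group that is assumed to vary like the other group. *Zfp961* remained called in 3 of 4 such fits and lost the call without WT replicate 2. *Zfp534* remained called in 2 of 4 and lost it without KO2 replicate 1 and without WT replicate 1. *Zfp146*, *Zfp62* and *Zfp259* were called only when KO2 replicate 2 was left out. The direction of the 5 genes was the same in each of these fits and in the other alternatives tried, but none was called with ERCC normalization or without a filter on low counts.

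The members with the lowest and the highest log2 fold change were not called. *Zfp747* (WT 15 and 44 counts, KO2 11 and 26) had the lowest log2 fold change of -1.79 (SE 0.551, adjusted p = 0.0649, edgeR), and it shares 37.1% of its 50-base stretches with other genes. *Zfp711*, an X-linked gene with 6 fingers and no KRAB box, had the highest, at 0.96 (SE 0.385, adjusted p = 0.168, edgeR), with 7.08 and 6.38 CPM in WT and 11.8 and 14.3 CPM in KO2. Close to the threshold lay *Zfp672*, with 14 fingers and no KRAB box, at 16.8 and 13.7 CPM in WT and 5.83 and 7.22 CPM in KO2 (log2 fold change -1.20, SE 0.361, adjusted p = 0.0575, edgeR). So did the KRAB gene *Zfp157*, in the other direction, at 53.7 and 66.4 CPM in WT and 77.6 and 101 CPM in KO2 (log2 fold change 0.56, SE 0.168, adjusted p = 0.0571, edgeR). With at least 10 counts required in every sample, both were called, as was *Zfp747*. These 4 genes were named after their values had been seen.

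Per kilobase of annotated exon, the levels of the members had a median of 6.09 CPM. It was 7.3 over all tested genes and 10.03 over those with the same minimum count. The highest was *Zfp936*, a KRAB gene of a chromosome 7 cluster, at 129 CPM per kb. Its rank is less certain, as it has only 1368 bases of annotated exon and shares 26.6% of its 50-base stretches with other genes. In CPM it was at 197 and 198 in WT and at 140 and 171 in KO2, with a log2 fold change of -0.35 (SE 0.127, adjusted p = 0.13, edgeR). *Zfp330*, which encodes a nucleolar protein and held no C2H2 pattern, followed with 90.4 CPM per kb and had 154 and 162 CPM in WT and 137 and 153 CPM in KO2. *Zfp317*, *Zfp229* and *Zfp568*, all KRAB genes, were at 59.5, 58.4 and 56.5 CPM per kb, which is close enough that their order cannot be read from 4 samples. Their log2 fold changes were -0.09, -0.28 and 0.07 (adjusted p = 0.792, 0.225 and 0.787, edgeR), and that of *Zfp317* was above 0 with ERCC normalization. None of these 5 members, the highest per kb, was called, with standard errors between 0.106 (*Zfp568*) and 0.138 (*Zfp317*) compared to a median of 0.26 over the members. In CPM without regard to length, *Zfp292* was the highest member, with a WT mean of 495.

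Members with a known role were looked at by name. Of the 31 listed genes, 24 were members and the other 7 were not tested. None of the 24 was called in edgeR, with 2 at an unadjusted p under 0.05 (8.33% compared to 19.4% of all tested genes). All 24 changed by less than 1.5-fold, with a median log2 fold change of -0.10 and a range of -0.35 to 0.34.

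Among those that act on retroviruses and imprinted loci, *Zfp809*, which recognises the primer binding site of murine leukaemia virus, was at 33.5 and 29.3 CPM in WT and at 27.6 and 31.7 CPM in KO2. The log2 fold change was -0.07 (SE 0.213, adjusted p = 0.899, edgeR), and the groups overlapped. *Zfp932*, which binds endogenous retroviruses, had 8.57 and 18.2 CPM in WT and 14.3 and 13.8 CPM in KO2, and its 2 WT samples differed by more than the groups did. It shares 45.1% of its 50-base stretches with other genes, so that its counts are less certain. *Zfp568*, which silences a placental promoter of *Igf2*, was level at 379 and 413 CPM in WT and 412 and 420 CPM in KO2. *Zfp445*, which with *Zfp57* protects imprinting control regions, was at 77.5 and 80.3 CPM in WT and at 89.4 and 94.1 CPM in KO2, with a log2 fold change of 0.22 (SE 0.141, adjusted p = 0.438, edgeR). *Zfp819* had a log2 fold change of 0.16 (adjusted p = 0.817, edgeR). Thus, no difference was detected for these KRAB genes at this depth.

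Among regulators of transcription, *Zfp143*, which binds many promoters, had a log2 fold change of 0.07 (SE 0.177, adjusted p = 0.891, edgeR). *Zfp217*, a partner of the CoREST and LSD1 co-repressors, was at 141 and 122 CPM in WT and 121 and 118 CPM in KO2, with a log2 fold change of -0.13. *Zfp148*, *Zfp384*, *Zfp462*, *Zfp260*, *Zfp191*, *Zfp335*, *Zfp292*, *Zfp238* and *Zfp161* had log2 fold changes between -0.35 (*Zfp161*, adjusted p = 0.396, edgeR) and 0.34 (*Zfp335*, adjusted p = 0.687, edgeR). The largest difference relative to its error was that of *Zfp207*, which encodes a spindle protein (BuGZ). It was at 375 and 412 CPM in WT and at 308 and 308 CPM in KO2, with no overlap, and its log2 fold change of -0.35 (SE 0.107) had an adjusted p of 0.0604 in edgeR and 0.0417 in DESeq2.

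The remaining genes of the list act on RNA or in the ubiquitin and SUMO systems. *Zfp106*, an RNA-binding protein and one of the more abundant members, was at 474 and 483 CPM in WT and at 441 and 451 CPM in KO2, without overlap between the groups but with a log2 fold change of only -0.10 (SE 0.102, adjusted p = 0.651, edgeR). *Zfp598*, a ubiquitin ligase that senses collided ribosomes, and *Zfp91*, also a ubiquitin ligase, had log2 fold changes of -0.16 and -0.13. The value was -0.22 for *Zfp451*, a SUMO ligase, and 0.05 for *Zfp346*, which binds double-stranded RNA. It was -0.21 for *Zfp326*, which acts in splicing and held no C2H2 pattern, and -0.25 for *Zfp706*. The adjusted p of these 6 genes ranged from 0.272 to 0.943 (edgeR).

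**Figure D3:**
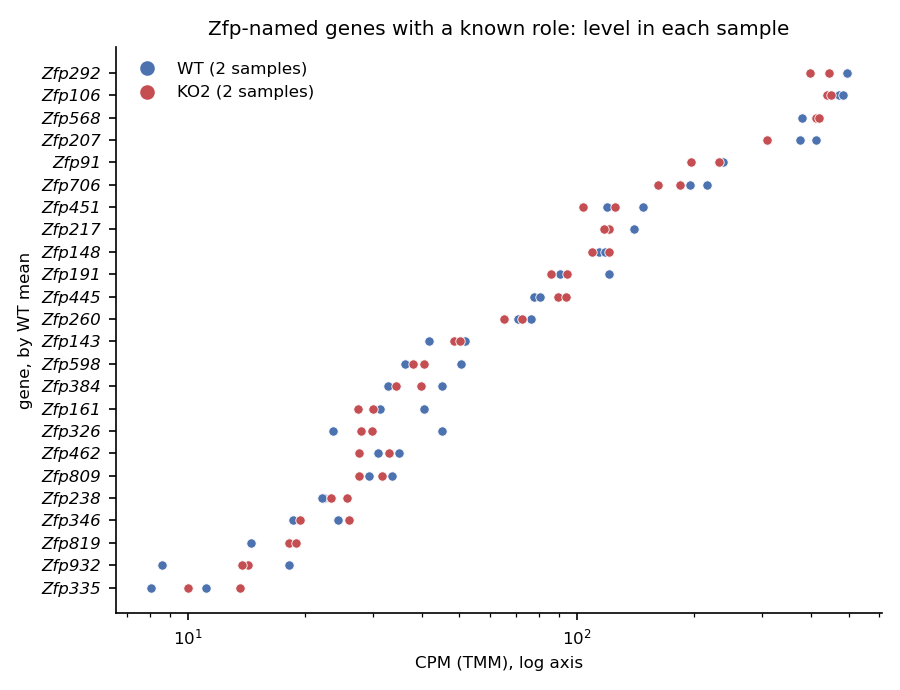
Level of the 24 members with a known role in each sample (TMM-scaled CPM, log axis, blue for the 2 WT and red for the 2 KO2 samples), ordered by the WT mean. For most genes the 4 points lie together, whereas *Zfp932*, a low gene that shares 45.1% of its 50-base stretches with other genes, spreads from 8.57 to 18.2 CPM in WT alone.

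Next, members were grouped by what their proteins hold. A KRAB box was found in 145 members, 91 had C2H2 fingers without one, and 5 had no C2H2 pattern. The KRAB members had a median of 12 fingers compared to 6 in those without KRAB, and *Zfp619* had the most with 33. Of the KRAB members 2 were called, both lower (1.38%), and their median log2 fold change was -0.06 with 82 of 145 below 0. In members with fingers and no KRAB box, 2 were called lower (2.2%), and the median was -0.09 with 60 of 91 below 0. A split by number gave 2 called of 120 members with at most 10 fingers and 3 of 121 with more, at medians of -0.04 and -0.10. Of the 5 members with no C2H2 pattern 1 was called, *Zfp259* (20%), a share that rests on 1 gene. The shares of the other groups all lie below the 5.64% of all tested genes, and the classes were not tested against each other.

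The partners that KRAB proteins act through were examined as a list. Of the 12 listed co-repressor genes (*Trim28*, *Setdb1*, *Atf7ip*, *Cbx1*, *Cbx3*, *Cbx5*, *Smarcad1*, *Morc3*, *Dnmt1*, *Uhrf1*, *Daxx* and *Atrx*), none was called in edgeR, but 5 had an unadjusted p under 0.05 (41.7% compared to 19.4% of all tested genes). The 12 genes had a median WT level of 439 CPM and a median SE of 0.109, compared to 21.9 CPM and 0.258 over all tested genes. The shares are thus not a like comparison. The log2 fold changes of the 12 ranged from -0.34 to 0.27, with 7 of 12 below 0. Of the 5 genes, 3 were lower, namely *Morc3* (-0.34), *Dnmt1* (-0.27) and *Atrx* (-0.26), and 2 were higher, *Setdb1* and *Cbx5* (0.22). *Trim28* was not among the 5. *Trim28* was at 1155 and 1208 CPM in WT and at 1324 and 1362 CPM in KO2, higher in both KO2 samples, with a log2 fold change of 0.18 (SE 0.097, adjusted p = 0.310, edgeR). *Setdb1* was at 255 and 255 CPM in WT and at 283 and 331 CPM in KO2, with a log2 fold change of 0.27 (SE 0.115, adjusted p = 0.200, edgeR).

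To see whether neighbouring members moved together, chromosomal clusters were defined as runs of *Zfp*-named genes with successive starts at most 1 Mb apart and at least 3 members. This gave 23 clusters on 11 chromosomes, with 141 members inside and 100 outside. The median log2 fold change was -0.07 inside and -0.05 outside. By cluster, the median was below 0 in 18 and above 0 in 5, whereas with ERCC normalization it was below 0 in 12 of 23. With TMM it was within 0.25 of 0 in 21 of 23. A called member occurred in 3 clusters (*Zfp534*, *Zfp146* and *Zfp961*), and no cluster held more than 1. Neighbouring genes with other names, within the span of a cluster and 1 Mb on either side, had a higher median than the members in 18 of 23 clusters. The minimum of 10 counts in every sample was not required of these neighbours, in contrast to the members. Over all tested genes that minimum lowers the median from 0.01 to -0.02, so that the 18 of 23 is not a like comparison.

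Large clusters showed both directions. The 18 KRAB members at chromosome 17, 21.1 to 23.7 Mb, ranged from -0.48 to 0.93, with a median of -0.15, 11 of 18 below 0 and none called. The 7 members at 32.9 to 33.8 Mb of the same chromosome had the highest median of the clusters, 0.11, with 6 of 7 above 0 and none called. On chromosome 7, which holds 59 members, the cluster around *Zfp146* at 30.6 to 31.0 Mb had 12 members, of which 6 were above and 6 below 0. Likewise, the *Zfp961* cluster on chromosome 8 (74.4 to 74.5 Mb) had 2 of 4 members above 0 and a median of -0.01.

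**Figure D4:**
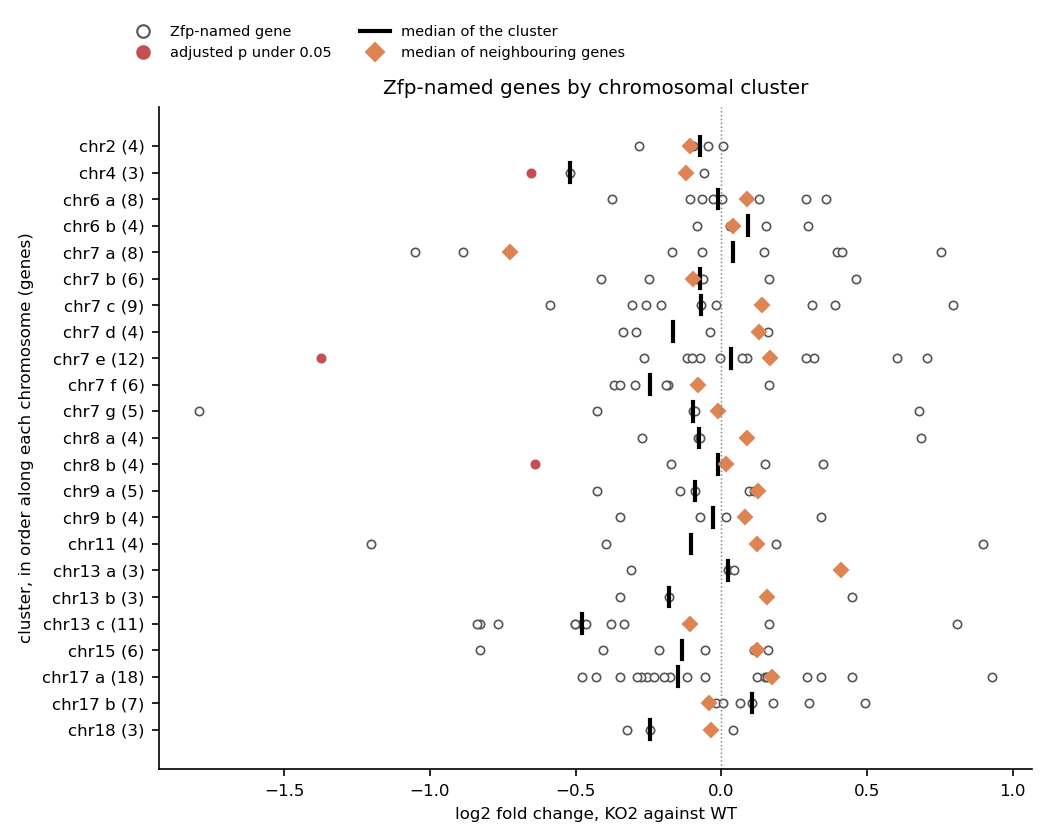
Log2 fold change (KO2 against WT) of each member (circles, filled where the adjusted p is under 0.05) in the 23 clusters, ordered along each chromosome with the number of members in brackets, with the cluster median (black bar) and the median of neighbouring genes with other names (diamond). The medians of 21 clusters lie within 0.25 of 0, and those of the chromosome 4 cluster and of the third cluster on chromosome 13 lie at -0.52 and -0.48.

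The cluster at chromosome 13, 66.8 to 67.9 Mb, held 20 *Zfp*-named genes of the annotation, of which 11 were members, all with a KRAB box. The median log2 fold change of the members was -0.48, and 9 of 11 were below 0. Both KO2 samples lay below both WT samples for 6 of 11 (background 23.4%, or 26.4% with the same minimum count), but none was called in edgeR. The minimum set aside *Zfp455* (WT 10 and 1 counts) and *Zfp457* (WT 0 and 8 counts) through their WT counts. Both were tested and lay above 0, at 0.68 and 0.71, so that the rule affects how uniform the cluster looks. The median was -0.16 over 10 tested KRAB genes with other names in and around the cluster and 0.02 over 9 other neighbours. That minimum was not required of these neighbours. *Zfp459*, with 3 fingers, came closest to the threshold, at 36.9 and 33.1 CPM in WT and 22.6 and 18.3 CPM in KO2, with a log2 fold change of -0.77 (SE 0.225, adjusted p = 0.0525, edgeR). *Zfp273* (18.3 and 14.7 CPM in WT, 9 and 9.09 in KO2) and *Zfp712* (8.57 and 11.6 in WT, 4.06 and 7.62 in KO2) were lower in the same way, with log2 fold changes of -0.84 and -0.83 and adjusted p-values of 0.158 and 0.309 (edgeR). *Zfp493* was the member furthest above 0, at 0.81, with 13 to 67 counts per sample and overlapping groups. The genes named for this cluster were chosen after their values had been seen.

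At the distal end of chromosome 4, *Zfp600*, *Zfp534* and *Zfp933* lie between 146.1 and 147.2 Mb, within a large array of KRAB genes that mostly carry provisional names. *Zfp600* was at 65.2 and 51.5 CPM in WT and at 40.2 and 40.5 CPM in KO2, with a log2 fold change of -0.52 (SE 0.177, adjusted p = 0.0987, edgeR). *Zfp933*, the member with little shared sequence, was at 29.8 and 15.1 CPM in WT and 17.0 and 24.5 CPM in KO2, a log2 fold change of -0.06 (SE 0.305, adjusted p = 0.945, edgeR) that was above 0 with ERCC normalization.

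Including genes with other names, 18 tested genes with a KRAB box lie within 1 Mb of this cluster. All 18 had a log2 fold change below 0, with a median of -0.52, and 9 were called lower in edgeR, namely *Zfp534* and *Gm13225*, *Gm13242*, *Gm13247*, *Gm13251*, *Gm13138*, *Gm13145*, *Gm13154* and *2610305D13Rik*. *2610305D13Rik*, the most abundant, was at 413 and 391 CPM in WT and at 256 and 313 CPM in KO2, with a log2 fold change of -0.50 (SE 0.117, adjusted p = 0.0151, edgeR). The 32 other tested genes of the region had a median of 0.17, with 15 below 0, 1 called lower (*Gm13151*, in whose annotated protein no KRAB box was found, at -1.05) and 1 called higher (*Mfn2*). All 18 KRAB genes had at least 10 counts in every sample, but not all of these 32 did. The low ones were mostly above 0, as *Gm13142* (0.59, WT 4 and 7 counts), though *Gm13148* (-1.67, WT 6 and 16) was below. The medians are thus not like for like. Inside the array, better counted genes with no KRAB box found were mostly below 0, as *Gm13147* (-0.43), whereas *Gm13034* (0.25) was above. These genes were named after their values had been seen.

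The genes of this array resemble each other closely. The 9 called genes share 12.6% to 94.6% of their 50-base stretches with other genes, so that a read can be lost or assigned within the array, and only *Gm13154* among them shares less than 20%. The number called was 5 with DESeq2 and 0 with ERCC normalization, and it fell to 3, 0 and 3 without KO2 replicate 1, WT replicate 1 and WT replicate 2. With ERCC normalization 16 of 18 remained below 0, with a median of -0.42, and over the fits that left out a sample the median ranged from -0.60 to -0.39.

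**Figure D5:**
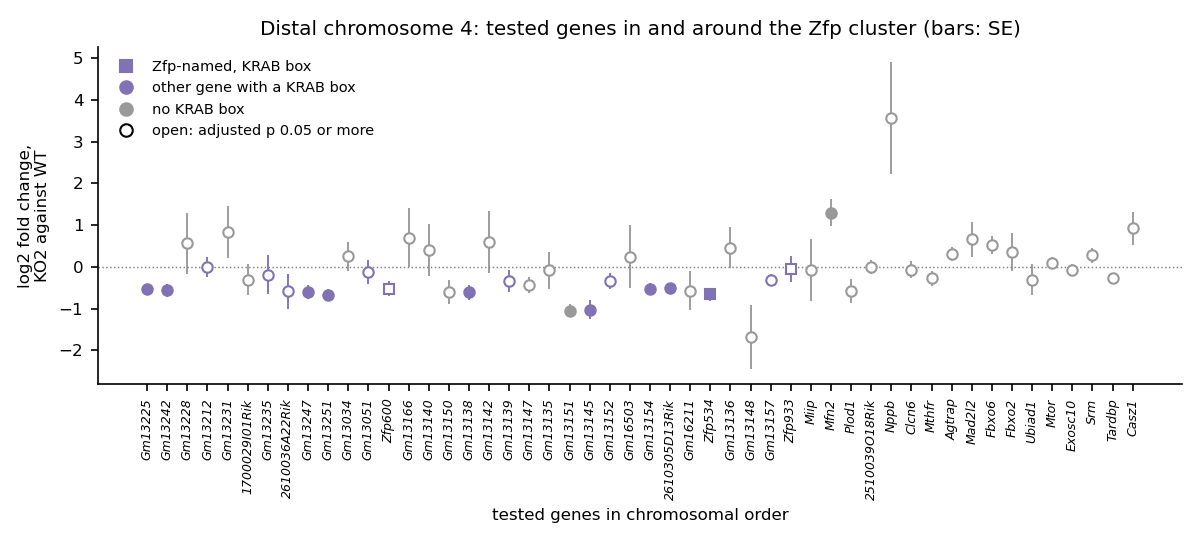
Log2 fold change (KO2 against WT, bars show SE) of the tested genes within 1 Mb of the chromosome 4 cluster, in chromosomal order, with genes that encode a KRAB box in purple (squares for *Zfp*-named genes) and other genes in grey, filled where the adjusted p is under 0.05. All 18 KRAB genes lie below 0, as do 15 of the 32 other genes. Some of the other genes had fewer than 10 counts in a sample, and these lie mostly above 0.

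Of the 94 tested KRAB genes with other names, 9 were called, all lower (9.57%, compared to 5.64% of all tested genes in both directions and 3.04% in the lower), of which 8 lie in the chromosome 4 array. The 79 on other chromosomes held 1 called gene (*5430403G16Rik*, chromosome 5, 1.27%) and had a median of -0.16, with 58 of 79 below 0, compared to 2 of 145 and a median of -0.06 in the KRAB members. Of the *Zbtb*-named genes, in which fingers are joined to a BTB domain, 3 of 34 were called, all higher (8.82%, compared to 2.6% of all tested genes in that direction), with a median of -0.11. None of 16 *Zscan*- and *Zkscan*-named genes, which carry a SCAN domain, was called in edgeR, with 2 at an unadjusted p under 0.05 (12.5%, compared to 19.4%) and a median of -0.08. The differences between these families were not tested.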

How the data were processed

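RNA was isolated in duplicate and depleted of ribosomal RNA, and strand-specific libraries were sequenced. HISAT2 mapped the reads to mm9 and HTSeq counted them per gene (versions, annotation and counting options are not given in the sources used here). The authors deposited raw counts per gene for each sample, without normalization or pooling. They analysed them with DESeq2. Library preparation is described in the labels in words that also fit ChIP material.

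The members, gene lists and groupings were chosen with earlier results of these data known. Symbols, coordinates and exon lengths came from GENCODE M1 on NCBIM37 (mm9), which matched 32782 of 48526 gene identifiers. Symbols in it that were *Zfp* and digits numbered 348, of which 15 are not analysed here. Counts were fitted in edgeR 4.0.16 (R 4.3.3) with TMM factors of 0.952 to 1.0605, filterByExpr (minimum count 10, minimum total 15), glmQLFit and glmQLFTest with group as the only term. Log2 fold changes are KO2 against WT. Named genes were called members with non-overlapping groups, the 5 highest per kb, listed genes with a known role, genes at the minimum and co-repressors, and others are marked in the text. As no protein table was used, C2H2 fingers (C-x2-4-C-x12-H-x3-5-H) and KRAB boxes (HMMER 3.4 profile of 143 sequences aligned with MAFFT 7.526, E-value up to 1e-04) were sought in translated GENCODE M1 transcripts, rather than in RefSeq proteins.

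Self-tests on counts simulated for this comparison (12541 genes) recovered 57 of 100 genes changed by 1 log2 unit and 98 of 100 changed by 2, with 6 false calls. The simulation gave every gene the same spread between replicates (a coefficient of variation of 0.15). In the data, the log2 CPM of the WT replicates differed with a standard deviation of 0.725, and that of the KO2 replicates with one of 0.472. These values include counting error, which the 0.15 does not, so that they cannot be set against it directly. Recovery in the data may be lower, which was not tested. Changes under 1 log2 unit were not simulated. Floors of 3 counts cover counting error only. Alternatives were DESeq2 1.42.0, RLE and ERCC normalization, other filters, the older quasi-likelihood method, the replicate block, removal of Y-linked and mitochondrial genes, thinning, other cluster definitions and leaving out each sample. The check of shared sequence and all alternatives for the chromosome 4 array were added with the data in view.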

Additional observations from a re-analysis of the deposited data

How the results depend on the processing

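Among the 241 members, 1 was called higher and 4 lower in KO2. The numbers were 0 higher and 4 lower with DESeq2 (189 of all genes higher), 0 and 0 with ERCC normalization (90 and 73 of all genes, median of the members 0.0032, 12 members at an unadjusted p under 0.05) and 0 and 0 without a filter on low counts (29 and 32 of all genes, 33 members at an unadjusted p under 0.05). They were 2 and 7 with at least 10 counts in every sample, and 0.5 and 4 as the median of 10 thinned draws. RLE normalization gave 1 and 6. Counting every tested *Zfp*-named gene gave 2 higher, as *Zfp296* was added, and counting only members with a C2H2 pattern gave 0 higher. Leaving out 1 sample gave 0 to 2 higher and 1 to 6 lower, 121 to 340 and 149 to 351 of all genes, and a median of the members from -0.1095 to -0.0371. The cause of these changes was not tested.

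The called KRAB genes in and around the chromosome 4 cluster numbered 9, compared to 5 with DESeq2, 0 with ERCC normalization, 0 without a filter, 0 to 9 when 1 sample was left out, and 1 when genes sharing over 20% of their 50-base stretches were set aside. The number of clusters with a median below 0 was 18 of 23, 12 of 23 with ERCC normalization, 17 of 22 with starts at most 500 kb apart and 23 of 36 with at least 2 members.

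With the replicate block, 2 members were called higher and 7 lower, including *Zfp157*, *Zfp459*, *Zfp672* and *Zfp747* (470 and 476 of all genes). In their deviations from the group means, samples of the same number correlated at -0.0066. With 2 samples per group, the value for different numbers is always the same with its sign reversed, here 0.0066, and adds nothing. No pattern shared by number was seen across genes, but whether the samples were paired was not tested.

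Of the values of single genes under these alternatives, 527 kept direction and side of the threshold, 26 lost a call, 13 gained one and 32 changed sign, all of the latter for genes that were not called. With ERCC normalization the log2 fold change was 0.0169 for *Zfp317*, 0.0804 for *Zfp148*, 0.0518 for *Zfp384*, 0.0165 for *Zfp809*, 0.0377 for *Zfp932* and 0.0603 for *Zfp933*. *Zfp932* gave 0.0441 with DESeq2, 0.0347 with at least 10 counts in every sample, 0.0153 without a filter, 0.0284 with the older method, 0.085 with the replicate block and 0.064 when thinned. *Zfp148* gave 0.0103 with at least 10 counts in every sample, 0.0157 without a filter and 0.0004 when thinned. When 1 sample was left out, values on both sides of 0 were seen for *Zfp317* (-0.2174 to 0.0339), *Zfp346* (-0.1821 to 0.2814), *Zfp148* (-0.0949 to 0.0627), *Zfp326* (-0.6439 to 0.2877), *Zfp384* (-0.2843 to 0.1726), *Zfp598* (-0.3579 to 0.1195), *Zfp809* (-0.1775 to 0.0307), *Zfp462* (-0.2523 to 0.0126), *Zfp143* (-0.0686 to 0.2416), *Zfp932* (-0.3724 to 0.7118) and *Zfp933* (-0.5254 to 0.4527). Depth limits what could be seen, as a member may have as few as 10 counts in a sample.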
